A study of Mus musculus with 6 samples.

Results

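The genes that process and display antigen on major histocompatibility complex (MHC) molecules were compared between 3 relapsed mouse gliomas, which regrew once their driving mutant epidermal growth factor receptor (EGFR) had been extinguished, and 3 control gliomas. Members were the genes whose symbol starts with H2-, the name of the mouse MHC, and a fixed set of accessory genes, each read by a probe set that lists 1 gene symbol. Where a gene had several such probe sets, the one with the highest mean stood for it. This gave 45 of 19938 genes tested, namely 32 of the class I route, 12 of the class II route and H2-Ke6, which carries an H2- symbol but encodes a steroid dehydrogenase. Of these, 17 class I and 8 class II members lay in the brighter 50% of genes by mean signal.

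The glioma cells were mutant EGFR-driven and grew under the skin of the flanks of Nu/Nu mice, and tumours were taken at 2 cm3. Doxycycline at 2 g/L was given in the drinking water of some of the mice, and which group received it is not stated in the labels. The labels number the controls 1, 2 and 4 and the relapsed tumours 1, 2 and 3. Each sample title also holds its own number, followed by R or L in the controls alone, and the meaning is not given. The labels do not state whether each tumour came from its own animal, so p-values measure the spread between these arrays only. The age of the hosts, and the MHC haplotype of the hosts and of the implanted cells, are not stated in the labels. Nu/Nu mice lack a thymus and most T cells but keep B cells, natural killer (NK) cells, macrophages and dendritic cells. Each tumour therefore holds implanted mouse cells and host mouse cells, and a probe set reads both. In such bulk samples, more cells of a type and more RNA per cell cannot be told apart.

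Class I molecules are made by nearly all nucleated cells and show peptides from inside the cell to CD8 T cells. The proteasome cuts the peptides, the Tap1 and Tap2 transporter moves them into the endoplasmic reticulum, and a loading complex fits them onto a heavy chain paired with B2m. Class II molecules are made chiefly by macrophages, dendritic cells and B cells, and by some other cells after interferon gamma, and show peptides from endocytosed protein to CD4 T cells. Their alpha and beta chains travel with the invariant chain Cd74, which H2-DM helps to replace with peptide. Nlrc5 and Ciita are the transcriptional coactivators of the class I and class II genes, and both act through a promoter-bound complex that contains Rfx5, Rfxap and Rfxank.

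Values are log2 intensities, and a difference is relapsed minus control on that scale. Over genes, arrays within a group correlated at 0.982 to 0.994, and pairs across the groups at 0.962 to 0.979. Of 7 glioma and neural markers 3 fell and none rose, and 5 lay lower in every relapsed tumour than in any control. Over all genes 5.47% fell and 17.8% lay lower without overlap. Olig1 and Olig2, transcription factors of the oligodendrocyte lineage, fell by 3.52 ± 0.36 and 3.54 ± 0.43, and Bcan, a brain proteoglycan gene, by 2.65 ± 0.38. Gfap was higher by mean, by 0.64 ± 0.48, and Sox10 differed by -0.14 ± 0.08, both with overlap. The list score was 0.474 to 1.16 in controls and -0.998 to -0.633 in relapsed tumours. Single arrays carried markers of other tissues. The skeletal muscle score was 2.31 in control 2 and at most 0.02 elsewhere, the adipocyte score 2.94 in relapsed 1 and at most -0.23 elsewhere, and the keratinocyte score 1.87 in relapsed 3 and at most -0.28 elsewhere. A score here is a list's average in a tumour after each gene was centred on its mean of the 6 arrays.

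Genes of the class II molecule had higher mean levels in relapsed than in control gliomas, although none passed the test across all genes. The class I genes H2-Q4, H2-Q5, Psmb8, Psmb9, Psmb10, Tap1 and Tap2 differed less between the groups than between tumours of 1 group. The reverse held for Calr and H2-M1, whose differences were small. The median difference was 0.72 over the 12 class II members and -2.2e-04 over the 32 class I members, against -0.02 over all genes. By limma with Benjamini-Hochberg adjustment no class I or class II member was called at an adjusted p under 0.05, where 9.16% of all genes were. Without adjustment 6 of 12 class II members, all of them higher in relapsed tumours, and 4 of 32 class I members had a p under 0.05, against 26.6% of all genes, or 11.2% in the higher direction alone. The levels of the groups did not overlap for 7 class II members, each higher in relapsed tumours, where 13% of all genes were. Among class I members they did not overlap for 3 that were higher and 2 that were lower, and 17.8% of all genes were of the latter kind. Limma with a mean-variance trend or with robust moderation likewise called 0 class I and 0 class II members.

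**Figure D1:**
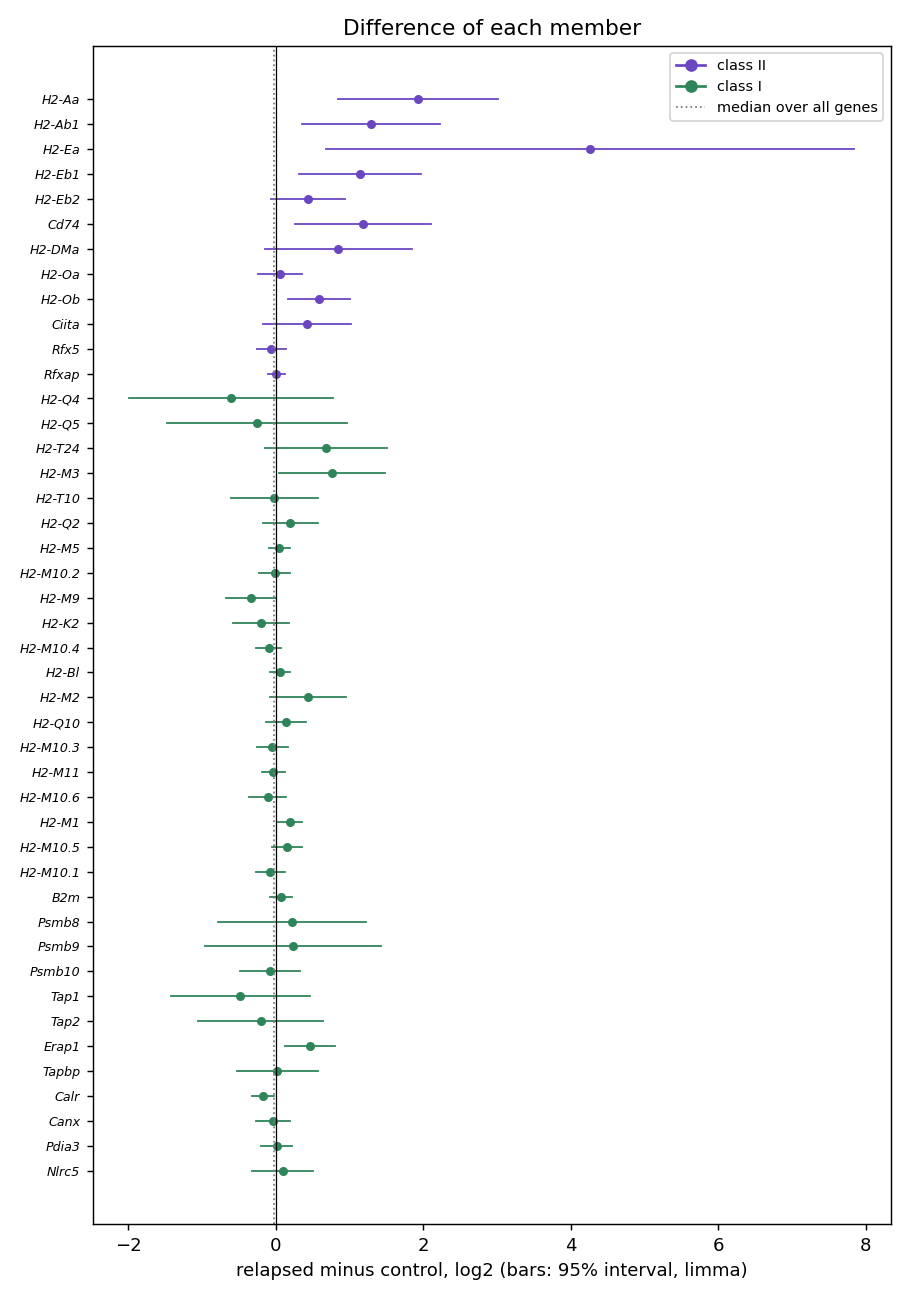
Difference between relapsed and control gliomas for the 44 class I and class II members, as relapsed minus control on the log2 scale on the horizontal axis, with 95% intervals from limma as bars. Class II surface chains and Cd74 lie to the right of 0, with H2-Ea at 4.26 having the widest interval, and most class I members lie near 0.

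The class II surface chains were read by 5 probe sets with 1 symbol, and in each of them every relapsed tumour lay above every control. H2-Aa, the alpha chain of the A molecule, stood at 8.28, 9.11 and 9.86 in control 1, 2 and 4 and at 10.97, 11.42 and 10.65 in relapsed 1, 2 and 3. The gap between the highest control and the lowest relapsed tumour was narrower than the range among the controls. Its difference was 1.93 ± 0.43 (standard error, SE, 3 arrays per group), or 3.82-fold, and its 95% interval ran from 0.85 to 3.02. Limma gave H2-Aa an adjusted p of 0.0541. Over the alternatives that value ran from 0.0221 to 0.393, and it passed with the dimmer 50% of genes left out (0.0221), with quantile normalization (0.0417) and with median centring (0.0451).

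H2-Ab1, the beta chain that pairs with H2-Aa, had levels of 9.21, 9.64 and 10.32 in control 1, 2 and 4 and of 10.92, 11.56 and 10.56 in relapsed 1, 2 and 3. Relapsed 3 was thus only slightly above control 4. The difference was 1.29 ± 0.37, or 2.45-fold, for which limma gave an adjusted p of 0.0955. It passed among the brighter 50% of genes alone (adjusted p = 0.0451, the lowest over the alternatives, of which 0.393 was the highest).

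H2-Eb1, the beta chain of the E molecule, followed the same order of tumours. Its levels were 9.54, 9.86 and 10.47 in control 1, 2 and 4 and 10.99, 11.62 and 10.70 in relapsed 1, 2 and 3. The difference was 1.15 ± 0.33, or 2.22-fold, and limma gave it an adjusted p of 0.0949, which was 0.0455 among the brighter 50% of genes and ran from 0.0455 to 0.393 over the alternatives. H2-Eb2, a second E beta gene, was close to 5.65, the median of all probe sets that the annotation lists without a gene, which is used here as a background level. It ranged from 5.15 to 5.42 in controls and from 5.49 to 6.17 in relapsed tumours.

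H2-Ea, the alpha chain of the E molecule, was split among the controls. It stood at 5.07 and 5.16 in control 1 and 2, below the background level, but at 10.11 in control 4 and at 10.68, 11.53 and 10.92 in relapsed 1, 2 and 3. Control 4 thus resembled the relapsed tumours and not the other two controls. The mean difference of 4.26 ± 1.43 did not pass in limma (adjusted p = 0.133, 95% interval 0.68 to 7.84). A fit without control 4, the one control that stood with the relapsed tumours, gave a difference of 5.93 ± 0.28. Its adjusted p of 0.0280 in limma was the only 1 under 0.05 over the alternatives, which spanned 0.0280 to 0.393. As control 4 is singled out by its level of this same gene, that p is no test of the group difference. The 2 controls left in that fit were both below the background level, so its size and error are not those of 2 measured levels. Set against the background level itself, the relapsed mean was at least 42.2-fold higher than in those 2 controls. The range of 5.03 among the controls was the second widest of all 19938 genes. The single wider one was that of Kcnma1, a calcium-activated potassium channel gene named after its values were seen. Kcnma1 stood at 11.87 and 11.98 in control 1 and 2, at 6.94 in control 4, at 5.94 and 6.19 in relapsed 1 and 2 and at 11.50 in relapsed 3, so it did not share the pattern of H2-Ea in relapsed 3. The E beta chain H2-Eb1 showed no such split, with 9.54 and 9.86 in the same control 1 and 2. As background, mice of several MHC haplotypes, that of C57BL/6 among them, carry a deletion at the start of H2-Ea and do not transcribe it, and RefSeq lists the gene as a transcribed pseudogene in that reference strain. Whether the tumours or hosts differed in haplotype was not tested.

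**Figure D2:**
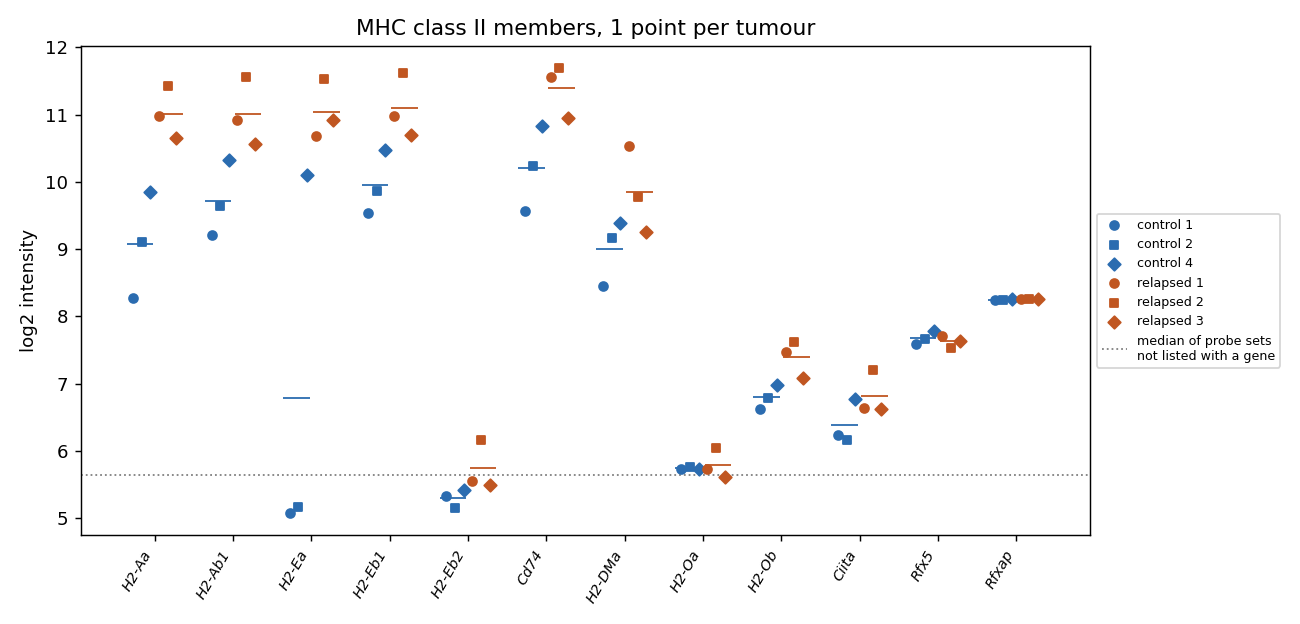
Log2 intensity of the 12 class II members (vertical axis) in each tumour, with controls in blue, relapsed tumours in orange, circles for number 1, squares for number 2 and diamonds for control 4 and relapsed 3, and short lines at the group means. H2-Aa, H2-Ab1, H2-Eb1 and Cd74 do not overlap between groups, control 1 is the lowest in each of them, and H2-Ea is near 5 in control 1 and 2 only.

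Among genes of class II loading, Cd74 was the brightest. The invariant chain gene stood at 9.56, 10.24 and 10.84 in control 1, 2 and 4 and at 11.55, 11.69 and 10.96 in relapsed 1, 2 and 3. Relapsed 3 exceeded control 4 by less than the controls differed among themselves. The difference of Cd74 was 1.19 ± 0.37, or 2.28-fold. Its adjusted p in limma was 0.113 and lay between 0.0540 and 0.393 over the alternatives. H2-DMa, a chain of the peptide exchange factor, ranged from 8.45 to 9.39 in controls and from 9.25 to 10.53 in relapsed tumours, so the groups overlapped. Its difference was 0.85 ± 0.40, and 0.51 without relapsed 1. H2-Ob, the beta chain of the inhibitor of H2-DM, ranged from 6.63 to 6.98 in controls and from 7.08 to 7.62 in relapsed tumours without overlap. Its difference was 0.59 ± 0.17 with an adjusted p of 0.0915 in limma. H2-Oa, its alpha chain, stood near the background level, at 5.73 to 5.76 in controls and 5.61 to 6.05 in relapsed tumours.

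None of the 3 members that regulate class II transcription was called. Ciita stood at 6.23, 6.17 and 6.77 in control 1, 2 and 4 and at 6.63, 7.21 and 6.62 in relapsed 1, 2 and 3. Control 4 lay within the relapsed range. The difference of Ciita was 0.43 ± 0.24 (95% interval -0.16 to 1.02, adjusted p = 0.323 in limma), and it was 0.24 without relapsed 2 and 0.62 without control 4. Rfx5 differed by -0.06 ± 0.08, between 7.59 and 7.79 in controls and 7.53 and 7.71 in relapsed tumours. Rfxap was 8.24 to 8.25 in controls and 8.25 in each relapsed tumour. Rfxank, the other subunit of that complex and no member of the group, fell by 0.78 ± 0.07 with an adjusted p of 0.00996 in limma. It stood at 9.00, 9.17 and 9.13 in control 1, 2 and 4 and at 8.30, 8.38 and 8.27 in relapsed 1, 2 and 3. Rfxank kept its call in all 6 fits that left out 1 array, and lost it when the replicate number was blocked (adjusted p = 0.393).

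The upstream sequences of 3 class II genes whose groups did not overlap are shown. X and CCAAT boxes in class II promoters are the elements through which the Rfx complex and Ciita are known to act. RefSeq promoter windows of GRCm38.p6, 250 bases before to 50 after the gene start, matched 33 of the 45 members, 7 of them class II and 25 class I. The 200 bases before the start are printed 5′ to 3′ in lower case on the strand of the gene, with capitals for matches to the X box core CTAGNNAC or to CCAAT on either strand. They lie at chr17:34287824-34288023 on the minus strand for H2-Aa, and on the plus strand at chr17:34305667-34305866 for H2-Eb1 and chr17:34238705-34238904 for H2-Ob.
H2-Aa: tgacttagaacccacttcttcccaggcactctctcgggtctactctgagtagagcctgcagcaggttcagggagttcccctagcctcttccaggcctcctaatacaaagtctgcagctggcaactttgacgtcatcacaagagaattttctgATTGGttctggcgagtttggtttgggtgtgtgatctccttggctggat
H2-Eb1: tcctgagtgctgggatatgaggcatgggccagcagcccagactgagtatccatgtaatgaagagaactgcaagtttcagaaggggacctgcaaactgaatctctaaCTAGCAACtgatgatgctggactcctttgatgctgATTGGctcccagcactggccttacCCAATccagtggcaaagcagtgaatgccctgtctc
H2-Ob: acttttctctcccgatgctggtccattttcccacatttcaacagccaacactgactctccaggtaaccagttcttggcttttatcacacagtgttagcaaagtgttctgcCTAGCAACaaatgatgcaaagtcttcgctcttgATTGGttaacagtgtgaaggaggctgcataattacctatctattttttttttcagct

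In H2-Eb1 and H2-Ob the match CTAGCAAC is followed after 27 and 25 bases by ATTGG, the reverse strand of CCAAT. The order was the opposite in H2-Eb2, which also did not overlap between groups: its X box core starts 12 bases before the gene start and its CCAAT box 100 bases before. An X box core followed by CCAAT also occurred outside class II, in H2-Ke6 after 17 bases, in H2-M1 after 57 and in H2-M9 after 38 at the nearest. Within the window, CTAGNNAC was found in 3 of 7 class II and 3 of 25 class I promoters and in 10.4% of all 32851 promoters. CCAAT was found in 7 of 7 class II and 20 of 25 class I promoters and in 37.4% of all. H2-Aa matched CCAAT, at 48 to 44 bases before the start, but not the X box core as spelled here. Variant spellings of the X box were not searched for, so its absence from H2-Aa is not shown. These are letter matches in the reference strain, not measured sites.

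The class I route starts with the heavy chains, and its classical pair H2-K1 and H2-D1 had no probe set of their own. Their symbols occur together in probe sets that list several genes. Of 20 heavy chain genes with a probe set of their own, 10 had a mean above 5.65, the background level, and 5 lay in the brighter 50% of genes. None was called. H2-Q4, a nonclassical heavy chain gene of the Qa region, was the brightest of them, at 10.38, 9.88 and 11.41 in control 1, 2 and 4 and at 9.87, 10.79 and 9.20 in relapsed 1, 2 and 3. The highest tumour was a control and the groups overlapped. Its difference was -0.60 ± 0.55 with an adjusted p of 0.549 in limma, and the interval of -1.98 to 0.78 leaves room for a change of more than 1 in the lower direction. It was -0.17 without control 4, -0.23 without relapsed 3, -0.94 without control 2 and -1.02 without relapsed 2. H2-Q5 differed by -0.26 ± 0.49, H2-T10 by -0.02 ± 0.24 and H2-T24 by 0.68 ± 0.33. H2-M3, which presents formylated peptides, ranged from 6.95 to 7.80 in controls and from 7.67 to 8.36 in relapsed tumours, a difference of 0.76 ± 0.29 with an adjusted p of 0.169. The 15 heavy chains outside the brighter 50% ranged in mean difference no further than -0.33 for H2-M9 to 0.44 for H2-M2. Between these lay H2-Q2 at 0.20 ± 0.15, H2-Q10 at 0.14, H2-K2 at -0.19 ± 0.15, H2-M5 and H2-Bl at 0.05 and 0.06, H2-M11 at -0.03, and H2-M10.1, H2-M10.2, H2-M10.3, H2-M10.4, H2-M10.5 and H2-M10.6, whose differences ran from -0.11 to 0.16. H2-M1 did not overlap between groups, at 3.75 to 3.83 in controls and 3.90 to 4.06 in relapsed tumours, but stayed below the background level in every tumour.

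B2m, the light chain shared by class I molecules, hardly varied. It stood at 12.73, 12.63 and 12.73 in control 1, 2 and 4 and at 12.73, 12.84 and 12.74 in relapsed 1, 2 and 3. The difference of 0.07 ± 0.06 had a 95% interval of -0.08 to 0.23.

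**Figure D3:**
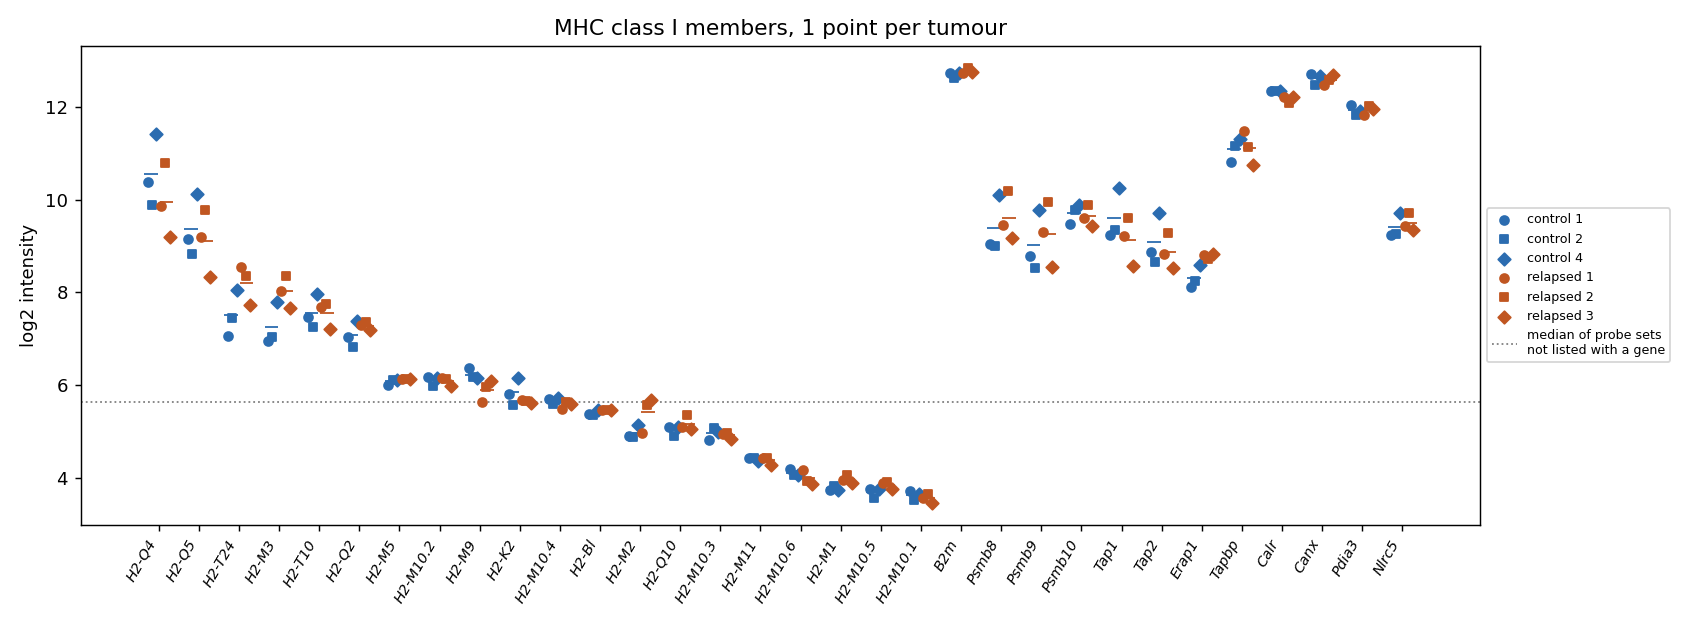
Log2 intensity of the 32 class I members (vertical axis) in each tumour, drawn with the same colours and symbols as the class II members and with heavy chains at the left in order of mean level. Control 4 and relapsed 2 stand above the other tumours of their group for H2-Q4, H2-Q5, Psmb8, Psmb9, Tap1 and Tap2, and the groups overlap.

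The inducible proteasome subunits and the peptide transporter differed more between tumours of 1 group than between groups. Psmb9 stood at 8.79, 8.52 and 9.78 in control 1, 2 and 4 and at 9.31, 9.95 and 8.54 in relapsed 1, 2 and 3. Psmb8 read 9.05, 9.00 and 10.10 in the controls and 9.45, 10.18 and 9.18 in the relapsed tumours, in the same order. Their differences were 0.24 ± 0.48 and 0.22 ± 0.40, with adjusted p of 0.797 and 0.778 in limma. Psmb10, the third inducible subunit, read 9.48, 9.78 and 9.89 in controls and 9.60, 9.89 and 9.44 in relapsed tumours, a difference of -0.07 ± 0.16. In all 3 of these genes control 4 was the highest control and relapsed 2 the highest relapsed tumour.

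Tap1 read 9.24, 9.35 and 10.24 in control 1, 2 and 4 and 9.21, 9.61 and 8.57 in relapsed 1, 2 and 3. Tap2 read 8.87, 8.65 and 9.72 in controls and 8.82, 9.28 and 8.53 in relapsed tumours. Relapsed 3 held the lowest value of all 6 tumours in both transporter subunits, and control 4 the highest. The differences were -0.48 ± 0.38 for Tap1 and -0.20 ± 0.34 for Tap2, with adjusted p of 0.486 and 0.752 in limma. That of Tap1 was -0.16 without control 4, -0.20 without relapsed 3 and -0.72 without relapsed 2. Erap1, which trims peptides in the endoplasmic reticulum, was the one gene of peptide supply without overlap. It ranged from 8.11 to 8.59 in controls and from 8.71 to 8.82 in relapsed tumours, a difference of 0.46 ± 0.13 with an adjusted p of 0.0957 in limma.

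The loading complex was close to level. Tapbp, the tapasin gene, differed by 0.02 ± 0.22, Canx, the calnexin gene, by -0.04 ± 0.09 and Pdia3, a disulfide isomerase, by 0.01 ± 0.08. Calr, the calreticulin gene, was 12.33 to 12.35 in controls and 12.08 to 12.21 in relapsed tumours, a difference of -0.17 ± 0.06 with an adjusted p of 0.148. The class I coactivator Nlrc5 read 9.24, 9.25 and 9.71 in control 1, 2 and 4 and 9.44, 9.71 and 9.35 in relapsed 1, 2 and 3. Its difference was 0.10 ± 0.17 with a 95% interval of -0.32 to 0.51. Nlrc5 has 19 probe sets with its symbol alone, and over these the difference ran from -0.10 to 0.42 with a median of 0.13.

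Levels varied between tumours of the same group. The 3 controls spanned at least 1 on the log2 scale for 6 class I members, namely H2-Q4, H2-Q5, Psmb8, Psmb9, Tap1 and Tap2, and for 4 class II members, namely H2-Aa, H2-Ab1, H2-Ea and Cd74, where 3.1% of all genes did. Of all 32 class I members, control 4 was the highest control in 18 and relapsed 2 the highest relapsed tumour in 19, and both held in 12. Over all genes these shares were 29.4%, 33.6% and 10.5%. Of the 17 class I members in the brighter 50% of genes the counts were 13, 12 and 10, where 29.9%, 26.4% and 9.31% of the brighter genes were so ordered. In class II, control 4 was the highest control for 11 of 12 members and relapsed 2 the highest relapsed tumour for 9. Control 1 was the lowest of the 6 tumours for 7 of the 12, as it was for 12.4% of all genes. The H2-Q genes are close relatives, and their probe sets may not be independent readings.

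H2-Q4 is shown as the class I heavy chain gene of highest level, with capitals for matches to the interferon response core GAANNGAAA or to CCAAT on either strand. The 200 bases before its start lie at chr17:35379417-35379616 of GRCm38.p6 on the plus strand.
H2-Q4: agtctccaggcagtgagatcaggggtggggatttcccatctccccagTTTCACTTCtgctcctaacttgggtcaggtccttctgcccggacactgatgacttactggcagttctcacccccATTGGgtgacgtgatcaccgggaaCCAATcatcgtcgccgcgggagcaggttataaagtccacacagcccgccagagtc

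The match TTTCACTTC lies on the reverse strand. GAANNGAAA was found in 4 of 25 class I promoters, namely those of H2-Q4, H2-Q10, H2-M2 and H2-M3, in 0 of 7 class II promoters and in 7.52% of all promoters. The gamma activated site TTCNNNGAA was found in 3 of 25, 0 of 7 and 8.3%, with Psmb8 among the 3. The class I kappa B site was found in none of either class and in 0.107% of all promoters.

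Other genes of antigen presentation, 45 in a fixed list, were measured for 42. Of these 5 rose and 2 fell, against 3.69% and 5.47% of all genes, and their median difference was 0.12. Called genes of the class II route were Ctss, the protease that trims Cd74, at 1.47 ± 0.24 with an adjusted p of 0.0273 in limma, Ctsb, another lysosomal protease, at 0.52 ± 0.06, and Marchf1, a ubiquitin ligase that removes class II molecules from the surface, at 0.69 ± 0.10, beside Rfxank. Ctss read 9.94, 9.87 and 10.74 in control 1, 2 and 4 and 11.70, 11.63 and 11.63 in relapsed 1, 2 and 3, without overlap. Cd86 and Cd80, costimulatory ligands of antigen-presenting cells, rose by 1.39 ± 0.25 and 1.06 ± 0.18. Psmb5, the constitutive proteasome subunit that Psmb8 replaces, fell by 0.30 ± 0.05 and is named after its values were seen. Leaving out 1 array at a time left between 1 called gene of the list (without control 1 or relapsed 3) and 4 (without control 4). Cd80 and Psmb5 were called in none of those 6 fits, Ctss, Cd86 and Marchf1 in 1 and Ctsb in 3.

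Of 8 measured genes of the interferon gamma route none was called. Irf1, a transcription factor that acts on class I promoters, differed by 0.22 ± 0.20, and the receptor chains Ifngr1 and Ifngr2 by 0.50 ± 0.15 and 0.49 ± 0.16. Psme1 and Psme2, the interferon-inducible proteasome activator, differed by 0.12 ± 0.22 and 0.27 ± 0.11. Interferon-inducible genes outside the route, 9 measured of 12, had a score of 0.92 in control 4 and 0.37 in relapsed 2, against -0.61 to -0.17 in the other 4 tumours. By score, control 4 and relapsed 2 were thus the highest of their groups in this list as in the brighter class I members. The scores of the latter were 0.38 and 0.31 there and -0.29 to 0.05 elsewhere. The order was not particular to these lists. Control 4 and relapsed 2 were also the highest of their groups for the class II surface chains, at 0.16 and 1.38. The same held for T cell markers, at 0.14 and 0.52. For macrophage, dendritic cell and NK cell markers relapsed 1 was instead the highest relapsed tumour. Single interferon-inducible genes departed from this order. Cxcl9 was highest of all tumours in relapsed 2, at 11.90, but Mx1 was lowest there, at 6.98. Oas1a and Cxcl10 were higher in relapsed 1 than in relapsed 2. None of the 9 interferon-inducible genes was called. In limma 4 had an unadjusted p under 0.05, all of them lower by mean in relapsed tumours, as were 15.4% of all genes. Ifit3, Mx1 and Rsad2 were lower in every relapsed tumour than in any control, as were 17.8% of all genes. The median difference of the 9 genes was -0.65, and their list score differed by -0.33. By mean 7 were lower and 2 higher, where 44.9% of all genes were higher. The 2 higher were Cxcl9, a chemokine gene, at 1.70 ± 1.08, and Iigp1, an interferon-inducible GTPase gene, at 0.62 ± 0.80. The part of interferon in these levels was not tested.

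Markers of macrophages rose in relapsed tumours. Of 9 measured, 6 rose and none fell, and 8 were higher in every relapsed tumour than in any control. Over all genes these shares were 3.69% that rose and 13% higher without overlap. The median difference of the 9 was 1.43. The mean marker level ran from 8.81 to 9.13 in controls and from 10.07 to 10.51 in relapsed tumours. Adgre1, the F4/80 macrophage antigen, rose by 1.43 ± 0.20 and Ptprc, the leukocyte antigen CD45, by 1.88 ± 0.36. Among the controls the macrophage score ran in the same order as that of the class II surface chains, with -0.78, -0.66 and -0.46 in control 1, 2 and 4 beside -1.59, -1.29 and 0.16 for class II. That class II score includes H2-Ea, whose range of 5.03 among the controls weighs heavily on it. H2-Aa, H2-Ab1 and H2-Eb1 each ran in the same order among the controls, and H2-Eb2 did not. Among the relapsed tumours the macrophage score was 0.92, 0.48 and 0.50 in relapsed 1, 2 and 3, where the class II surface chains scored 0.75, 1.38 and 0.59. Dendritic cell markers, 8 measured, held none called and none without overlap, with a mean level of 6.36 to 6.70 in controls and 6.51 to 7.27 in relapsed tumours. Itgax, which encodes CD11c, was 7.90 to 8.43 in controls and 8.19 to 8.66 in relapsed tumours. Cd209a, a lectin gene of dendritic cells, stood at 6.49 to 6.57 in controls and at 9.07, 6.48 and 7.30 in relapsed 1, 2 and 3. Of the 8 dendritic cell markers 6 were higher by mean in relapsed tumours, as were 44.9% of all genes. The other 2, Flt3 and Zbtb46, were lower, at -0.03 and -0.04.

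B cell markers, 5 measured, held none called and had a mean level of 5.36 to 5.41 in controls and 5.43 to 6.08 in relapsed tumours. Cd79a was at most 5.16 in any tumour and Ms4a1, which encodes CD20, exceeded the background level in relapsed 2 alone, at 5.72. Cd79b, the partner of Cd79a in the B cell receptor, did not overlap between groups, at 6.40 to 6.49 in controls and 8.06, 7.67 and 6.88 in relapsed 1, 2 and 3. Its difference was 1.09 ± 0.30 with an adjusted p of 0.0862 in limma. Of the 5 B cell markers 3 were higher by mean in relapsed tumours, and 2, Pax5 and Blk, were lower, at -0.03 and -0.05. Among T cell markers, 6 measured, and NK cell markers, 7 measured, none was called. T cell markers were higher by mean in 3 of 6 and NK cell markers in 6 of 7, against 44.9% of all genes. Their median differences were 0.08 and 0.56. Cd3e read 6.63 to 7.24 in controls and 6.46 to 7.34 in relapsed tumours. Cd3g, another chain of the T cell receptor complex, read 5.73, 5.22 and 6.79 in control 1, 2 and 4 and 6.56, 8.35 and 6.07 in relapsed 1, 2 and 3, so control 4 and relapsed 2 were the highest of their groups. Ncr1, the NK cell receptor NKp46, read 4.83 to 5.44 in controls and 7.49 in relapsed 1, against 5.16 and 5.43 in relapsed 2 and 3. Klrk1, the receptor NKG2D, differed by 1.09 ± 0.37 with an adjusted p of 0.133 in limma. Gzma, a granule protease gene, did not overlap, at 5.11 to 5.33 in controls and 5.37 to 6.22 in relapsed tumours, and limma gave it an adjusted p of 0.183. Endothelial markers, 6 measured, held none called, and Pecam1 read 8.55 to 8.63 in controls and 8.22 to 8.55 in relapsed tumours. Fibroblast markers rose in 5 of 7, where 3.69% of all genes rose, with a median difference of 1.20. The part of these cell types, and of the lower glioma and neural markers, in the class II levels was not tested.

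**Figure D4:**
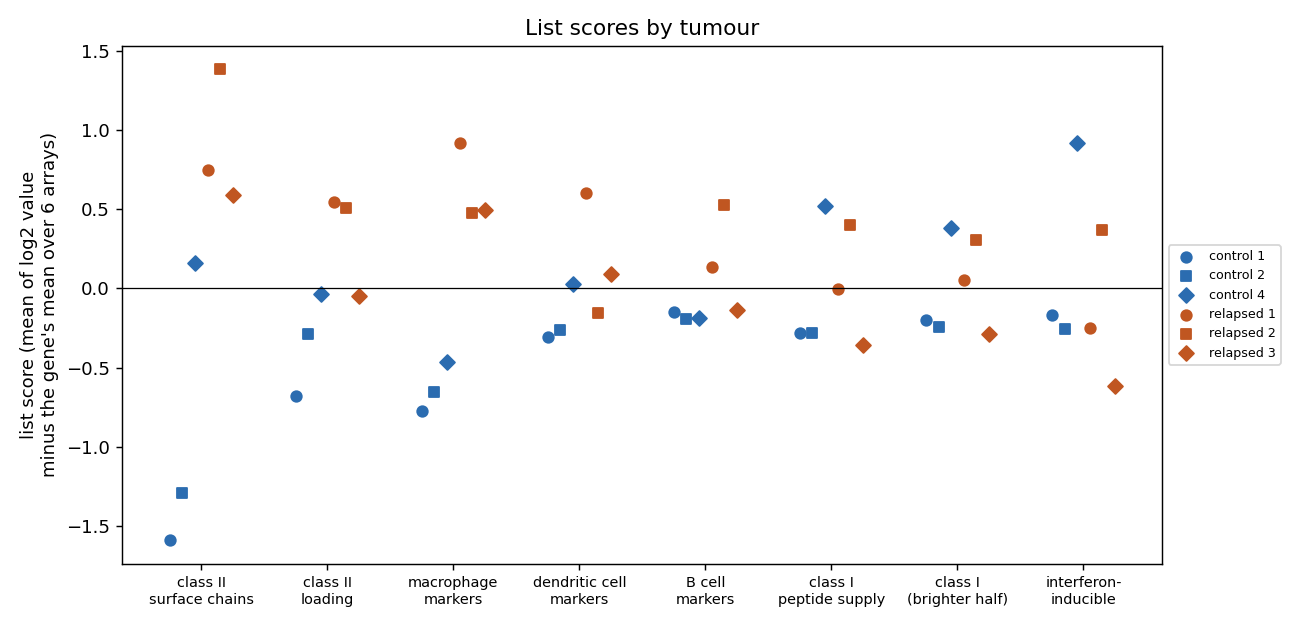
List scores by tumour (vertical axis: list average on the log2 scale, each gene centred on its 6-array mean), with colours and symbols as for the single genes. Class II surface chains and macrophage markers separate the groups, and H2-Ea weighs heavily on the spread of the class II controls. Control 4 and relapsed 2 are the highest of their group for class II surface chains, class I peptide supply, brighter class I members and interferon-inducible genes.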

How the data were processed

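Each tumour had 1 array. The deposited table gives a log2 intensity per probe set, and the arrays were taken as already made comparable by the authors. Array medians lay close together but apart by group, at 6.58 to 6.62 in controls and 6.67 to 6.68 in relapsed tumours. Median centring, which removes this offset, was one of the alternatives. The log2 scale was inferred from a range of 1.93 to 14.2. Per the submitters' processing notes the affy package was used. How background and probes were treated is not stated. Since the arrays were normalized together, a change shared by most transcripts is hidden.

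Of 35556 probe sets, 21789 had 1 gene symbol in the platform annotation and 1621 had several, which name no gene here. Relapsed and control tumours were compared over 19938 genes with limma 3.58.1 in R 4.3.3 (lmFit and eBayes, 4 residual and 1.53 prior degrees of freedom, two-sided, Benjamini-Hochberg adjustment over all genes, threshold 0.05), with no filter and no replicate block. The fit was tested on simulated data with changes added to some genes. It called 64 of 100 changes of 1 on the log2 scale and 86 of 100 changes of 2. It also called 6 genes without an added change. A change of such a size can thus go uncalled. Precision is limited by there being 3 arrays per group. The members, lists and motifs were chosen with earlier results of these data known, and member lists got no test. Any member could be named, values in every array being given for the main chains, transporters and inducible proteasome subunits, for Ciita and Nlrc5, and for members without overlap that differ by at least 1, as well as the called genes of the other list with the largest changes and defining cell markers. Cell markers beyond these were named after their values were seen. Promoter sequences are RefSeq's. Alternatives changed the filter, scaling, probe set choice, moderation, array weights, arrays and block.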

Additional observations from a re-analysis of the deposited data

Results flagged for a closer look

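A probe set that lists both H2-DM beta chain genes, and so names neither alone, lay outside the members and stood higher in every relapsed tumour than in any control. It read 8.27, 8.54 and 9.19 in control 1, 2 and 4 and 9.75, 9.97 and 9.48 in relapsed 1, 2 and 3, a difference of 1.07 that was not tested. The other 7 probe sets with several H2- symbols overlapped between the groups, with differences of -0.10 to 0.32. The pair that lists H2-K1 and H2-D1 together read 10.94 to 11.73 and 11.16 to 11.97 in controls and 11.25 to 11.96 and 11.11 to 11.94 in relapsed tumours.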

How the results depend on the processing

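Under 16 alternatives no class I member was called, and the class II median difference kept its sign. The count of called class II members, 0 as reported, was 3 with the dimmer 50% of genes left out (H2-Aa, H2-Ab1 and H2-Eb1), where the class II median was 1.17 because 4 dim members dropped out, and 1 with quantile normalization and 1 with median centring (H2-Aa in both). Leaving out 1 array at a time gave 0 to 1 called class II members, 264 to 975 of all genes and 1 to 4 of the other antigen presentation genes. The class II median then ran from 0.54 to 0.95 and that of class I from -0.046 to 0.093.

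The controls and relapsed tumours share the numbers 1 and 2 alone. Deviations from the group means correlated at -0.34 and -0.25 between tumours of the same number, so the numbers were not taken to pair them. With the replicate block, which leaves 1 residual degree of freedom, 0 of all genes and 0 of the other antigen presentation genes were called, and the differences of H2-M10.2, H2-M10.3, H2-Q4, H2-Q5, H2-T10, Pdia3, Psmb10, Tap1 and Tap2 turned sign, to 0.061, 0.011, 0.20, 0.50, 0.36, -0.0060, 0.12, 0.12 and 0.29.

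Other sign changes were of small differences that passed no test. With quantile normalization H2-Bl, H2-M5, Pdia3, Tapbp, H2-Oa and Rfxap stood at -0.010, -0.0096, -0.074, -0.020, -0.0091 and -0.0086. Median centring lowers every difference by 0.0742, so it turns any difference between 0 and that value, and H2-Bl, H2-M5, Pdia3, Tapbp, B2m, H2-Oa, Rfxap and H2-Ke6 stood at -0.012, -0.021, -0.061, -0.051, -3.7e-04, -0.018, -0.067 and -0.048. With array weights Tapbp stood at -0.055. Leaving out 1 array at a time, the sign turned for H2-M10.2 (-0.077 to 0.040), H2-M10.3 (-0.11 to 0.013), H2-M11 (-0.052 to 0.018), H2-Q5 (-0.59 to 0.13), H2-T10 (-0.17 to 0.19), Canx (-0.11 to 0.014), Pdia3 (-0.034 to 0.071), Tapbp (-0.15 to 0.21), Nlrc5 (-0.0061 to 0.25), Psmb10 (-0.20 to 0.028), Psmb8 (-0.071 to 0.58), Psmb9 (-0.10 to 0.61), Tap2 (-0.42 to 0.12), H2-Oa (-0.069 to 0.15) and H2-Ke6 (-0.13 to 0.17). Apart from median centring, the cause of these changes was not tested. In all, 646 of 701 values of single members over the alternatives kept their sign and their side of the threshold.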

Other observations

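Class I-like molecules share the fold of the class I heavy chain but present lipids or metabolites or bind other ligands. Of 6 measured none was called by limma. An unadjusted p under 0.05 in limma was found for 1 of the 6, against 26.6% of all genes. Mr1, which presents vitamin B metabolites, differed by 0.10 ± 0.15, and Cd1d1, which presents lipids, by -0.05 ± 0.13. Hfe, an iron regulator, read 7.08 to 7.56 in controls and 7.70 to 8.38 in relapsed tumours, without overlap, with an adjusted p of 0.166 in limma.

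Cd274, which encodes the inhibitory ligand PD-L1, read 8.58, 8.08 and 9.30 in control 1, 2 and 4 and 8.19, 9.38 and 8.29 in relapsed 1, 2 and 3. Control 4 and relapsed 2 were the highest of their groups, as for Psmb8 and Psmb9. The costimulatory receptor gene Cd40 differed by 0.44 ± 0.21, and Icosl by 0.43 ± 0.23. Cd274, Cd40 and Icosl were not called, with adjusted p of 0.974, 0.257 and 0.308 in limma.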
